A study of Homo sapiens with 4 samples.

Results

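The genes that write, copy, erase and read DNA methylation were followed in GBM8401, a human malignant glioma cell line, made resistant to temozolomide (TMZ) or left parental. They are 9 genes, named by their function and matched by symbol to the 58219 gene IDs of the deposited table, and all 9 were among the 16132 genes that passed the filter on low values. The resistant group held 2 libraries of total RNA from the line kept in medium with 200 µM TMZ, an alkylating drug, for 140 days. The parental group held 2 libraries of the line labelled parental, and both groups were grown in RPMI1640 with fetal bovine serum. The resistant pair stands for 1 derived line, and the labels call the replicates biological without saying how the cultures were separated, so p-values measure the spread between these libraries only. RNA was measured, and DNA methylation itself was not.

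Methyl groups on cytosines of CpG dinucleotides mark DNA that is often silent. DNMT3A and DNMT3B place the marks on unmethylated DNA, and DNMT1 copies them to the new strand after replication. UHRF1 recognises hemimethylated DNA behind the replication fork and brings DNMT1 there, and HELLS, also called LSH, is a chromatin remodeller that opens packed DNA for this machinery. The TET dioxygenases TET1, TET2 and TET3 oxidise methylated cytosine, the first step of its removal, with 2-oxoglutarate as a cosubstrate. MBD2 binds methylated CpGs and recruits the NuRD repressor complex. In glioma, DNA methylation is known for the methylated MGMT promoter and for its tie to mutant isocitrate dehydrogenase, whose product inhibits TET enzymes.

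Promoter windows of the maintenance genes DNMT1, UHRF1 and HELLS held matches to a known motif. The 9 genes had 20 RefSeq promoter windows, each from 250 bases before to 50 bases after a start site. These were searched on both strands for the 4 octamers TTTCCCGC, TTTCGCGC, TTTGCCGC and TTTGGCGC, which are forms of the site bound by E2F, the transcription factor family of S-phase genes. Matches stood in windows of DNMT1, UHRF1 and HELLS, 3 of the 9 genes, and in no window of the other 6. Over all genes with a window, 1090 of 27303 (3.99%) held a match, and of 17 replication genes 11 did (64.7%). Each octamer holds a CpG, and the windows of the 9 genes had a median of 27 CpGs, against 14 over all windows. No background of like CpG content was drawn. The octamers were chosen with the values of these genes known. A match describes letters only, and binding was not measured. The stretches that carry the matches are shown 5′ to 3′ (RefSeq, GRCh38.p14), with the matched octamer or its reverse complement in capitals, because these are the genes of the copying step. They lie at chr19:10194948-10195027 (minus strand) for DNMT1, chr19:4909421-4909500 (plus strand) for UHRF1 and chr10:94545692-94545787 (plus strand) for HELLS.
DNMT1: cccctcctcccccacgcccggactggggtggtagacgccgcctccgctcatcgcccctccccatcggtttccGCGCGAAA
UHRF1: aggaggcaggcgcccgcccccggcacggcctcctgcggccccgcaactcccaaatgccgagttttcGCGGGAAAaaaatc
HELLS: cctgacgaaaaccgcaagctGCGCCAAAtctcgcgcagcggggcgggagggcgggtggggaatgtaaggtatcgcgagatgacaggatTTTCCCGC
With the start base counted as 0, the DNMT1 match ran from -2 to 5, the UHRF1 match from -14 to -7, and the HELLS matches lay between -76 and -1. A second start site of UHRF1 also had a match. The 6 windows of DNMT3A, the 1 of DNMT3B and the 7 of the TET genes held none of these letters. The windows follow RefSeq start sites, and the outermost GENCODE start was not searched for DNMT1, UHRF1, HELLS, DNMT3B, TET1 and TET3. Every window of DNMT1, UHRF1, HELLS and DNMT3B lay inside the span of its GENCODE gene.

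Resistant cells had less RNA of most of these genes. Of the 9 genes 7 fell, DNMT3A rose and TET2 did not pass the test (limma on log2(value + 1), Benjamini-Hochberg adjusted p under 0.05 over all genes tested). UHRF1 fell furthest, to 33.2% of its parental value. Calls were common in this comparison. Over all genes tested 37.1% were called, 20.9% as lower and 16.2% as higher, and the median log2 fold change (resistant minus parental) was -0.02, against -0.47 over the 9 genes. The libraries of the groups did not overlap for any of the 9 genes, which also held for 68.6% of all genes tested. Both resistant libraries were the lower ones for 8 of the 9 genes and for 36.4% of all genes tested. Of all called genes 43.7% were higher as deposited, and 56.9% once each library was scaled to its total. With library totals the log2 fold changes of the 9 genes lay between -1.5 for UHRF1 and 0.42 for DNMT3A. In bulk RNA, fewer cells expressing a gene and less RNA per cell cannot be told apart.

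**Figure D1:**
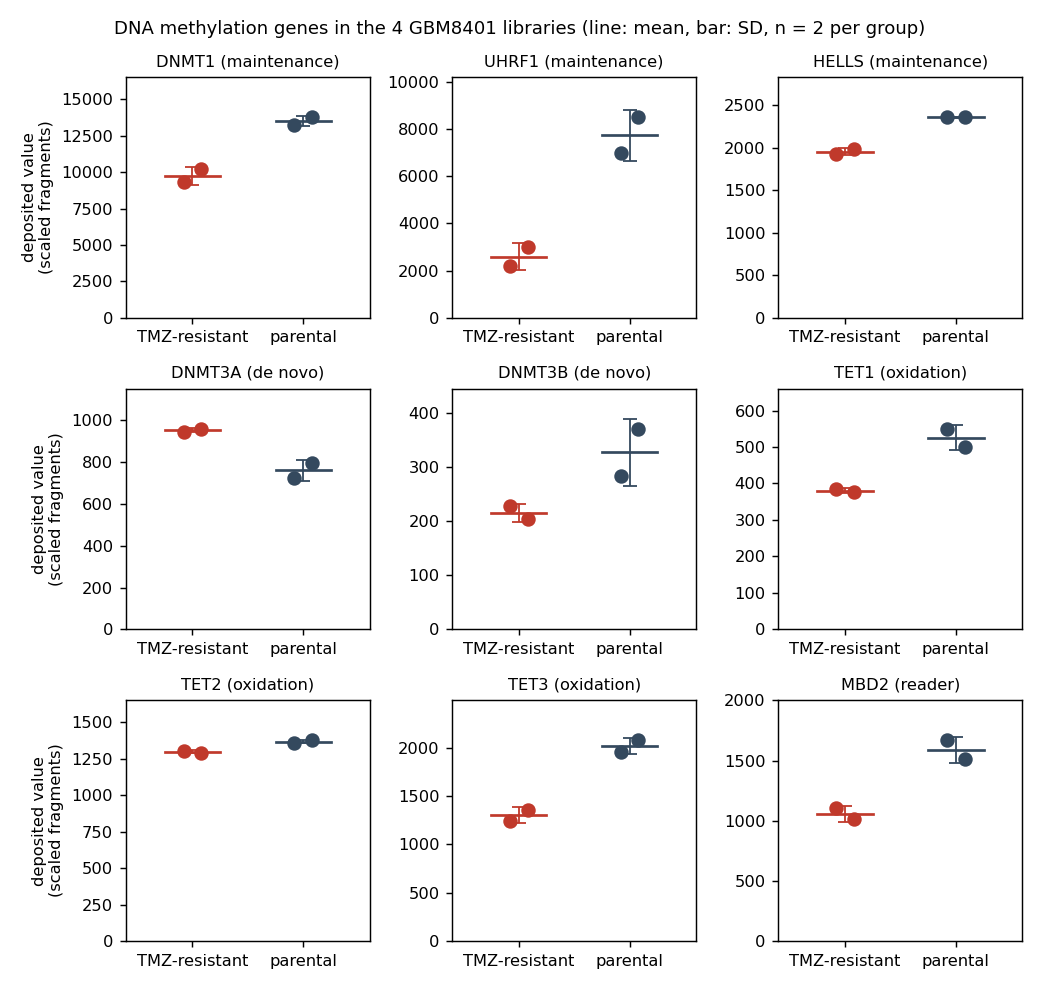
Deposited values (scaled fragments, linear axes from 0) of the 9 genes in each library, TMZ-resistant on the left and parental on the right of each panel. Points are libraries, lines are means and bars the SD (n = 2 per group). UHRF1 shows the widest gap, with 2184 and 2991 in resistant against 6983 and 8507 in parental libraries, and DNMT3A is the gene whose resistant points lie higher.

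The libraries were of similar depth. Their deposited totals of 23163310 and 24225039 in resistant and 24791254 and 25832511 in parental cells stand for 27019137 to 30759939 fragments. Each of the 9 genes rested on 239 to 16306 fragments per library. The labelled glioma cell type was checked against its markers. VIM, CD44 and EGFR were at 10606 or more in every library. GFAP was at 0 to 2.87, S100B at 0.956 to 4.25 and SOX2 at 2.87 to 10.5, so the astrocyte filament was all but undetected in either group. NES was at 3430 to 7859, OLIG2 at 183 to 237, PDGFRA at 55.8 to 97.1 and FABP7 at 8.6 to 21.2. Of 10 such markers 7 were tested, and VIM, NES and CD44 fell, with log2 fold changes of -0.61, -1.06 and -0.47. Of 13 markers of other cell types 12 were tested, RBFOX3 rose (1.58) and CDH5 fell (-1.30), and MLANA was listed at 0. The fibroblast markers COL1A1, at 3051 to 4170, and COL3A1, at 2079 to 3018, were the highest, and the epithelial CDH1 was at 297 to 503. The 13 markers together summed to 8609 and 6777 in resistant and 8456 and 6344 in parental libraries. Without parental replicate 1, 3 of them were called higher. The 13 mitochondrially encoded genes, a rough sign of RNA quality, had 7 falls and 0 rises, among them MT-CO3, MT-ATP6 and MT-ND1 at -0.54, -0.56 and -0.45, and 4 falls without parental replicate 2 or resistant replicate 1 and 2 with plain empirical Bayes, that is, limma without trend or robust moderation. The mitochondrial share of all signal was 3.51% and 3.72% in resistant and 3.62% and 3.77% in parental libraries. The part of these lists in the results was not tested.

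UHRF1 (chromosome 19, 4903080 to 4962154, plus strand) had the largest change of the 9. Its deposited value was 2184 and 2991 in resistant libraries, against 6983 and 8507 in parental libraries. Both resistant libraries were low and both parental ones high, and in each group replicate 2 was the higher. The means were 2587 ± 571 in resistant and 7745 ± 1080 in parental cells (SD, n = 2 each), a 3.01-fold fall. The log2 fold change was -1.59 ± 0.16 (SE; 95% interval -1.99 to -1.19; limma adjusted p = 8.29e-04), and 173 of the 16132 genes tested (1.07%) had a lower one.

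DNMT1 (chromosome 19, 10133345 to 10231286, minus strand), the copying enzyme, fell less. The values were 9316 and 10188 in resistant libraries, against 13265 and 13768 in parental libraries, without overlap. DNMT1 fell 1.39-fold (log2 fold change -0.47 ± 0.07, SE; 95% interval -0.64 to -0.30; limma adjusted p = 0.00177). It shares 83 exon bases with S1PR2 on the same strand, a gene at 153.6 to 176.6 in the 4 libraries. The ratio of UHRF1 to DNMT1, which no scaling of libraries can alter, was 0.446 and 0.559 per length in resistant libraries, against 1.0 and 1.18 in parental ones. Per longest protein-coding transcript, a length chosen after the values were seen, the ratio was 0.294 and 0.368 in resistant libraries, against 0.661 and 0.775 in parental ones. With either length it was lower in both resistant libraries, but whether UHRF1 reached the DNMT1 level in parental cells depends on the length.

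HELLS (chromosome 10, 94501434 to 94613905, plus strand) changed least among the genes that fell. Its values were 1922 and 1985 in resistant libraries, against 2354 and 2357 in parental libraries. The groups were apart, with parental replicates nearly equal. The fall was 1.21-fold (log2 fold change -0.27 ± 0.08, SE; 95% interval -0.45 to -0.10; limma adjusted p = 0.0244). This call was lost without any 1 of the 4 libraries, with adjusted p of 0.0598 to 0.164, and with scaling to the library total (log2 fold change -0.17, adjusted p = 0.0871).

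The de novo enzymes went in opposite directions. DNMT3A (chromosome 2, 25227855 to 25342590, minus strand) was at 945.1 and 959.7 in resistant libraries, against 723.2 and 797.4 in parental libraries. Both resistant values were the higher ones, a 1.25-fold rise (log2 fold change 0.33 ± 0.10, SE; 95% interval 0.11 to 0.55; limma adjusted p = 0.0291). The rise passed without parental replicate 2 but not without parental replicate 1, resistant replicate 1 or resistant replicate 2, where the adjusted p was 0.102, 0.132 and 0.156. DNMT3B (chromosome 20, 32762385 to 32809356, plus strand) had the lowest values of the 9 genes, 226.7 and 203.0 in resistant libraries, against 283.1 and 370.0 in parental libraries. Its parental libraries differed more from each other than its resistant ones. It fell 1.51-fold (log2 fold change -0.59 ± 0.16, SE; 95% interval -0.97 to -0.21; limma adjusted p = 0.0231). This call was lost without parental replicate 2 (log2 fold change -0.40, adjusted p = 0.104) and without resistant replicate 2 (-0.51, adjusted p = 0.115). The ratio of DNMT3A to DNMT3B was 1.61 and 1.82 per length in resistant libraries, against 0.984 and 0.83 in parental libraries. Per longest protein-coding transcript it was 1.9 and 2.16 in resistant libraries, against 1.17 and 0.984 in parental ones. With either length it was higher in both resistant libraries, but whether DNMT3A reached the DNMT3B level in parental cells depends on the length.

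Among the TET genes, TET3 and TET1 fell and TET2 did not pass the test. TET3 (chromosome 2, 73986404 to 74108176, plus strand) was at 1241 and 1360 in resistant libraries, against 1957 and 2077 in parental libraries. The groups lay far apart relative to their spread, a 1.55-fold fall (log2 fold change -0.63 ± 0.09, SE; 95% interval -0.83 to -0.43; limma adjusted p = 0.00101). TET1 (chromosome 10, 68560656 to 68694482, plus strand) was at 384.8 and 375.4 in resistant libraries, against 549.9 and 501.0 in parental libraries. It fell 1.38-fold (log2 fold change -0.46 ± 0.11, SE; 95% interval -0.72 to -0.20; limma adjusted p = 0.0135). The TET1 call was lost without resistant replicate 1 (adjusted p = 0.066) and without resistant replicate 2 (0.0829). TET2 (chromosome 4, 105145875 to 105279816, plus strand) was at 1306 and 1292 in resistant libraries, against 1361 and 1377 in parental libraries. These values did not overlap, yet the difference was small (log2 fold change -0.08 ± 0.08, SE; 95% interval -0.26 to 0.11; limma adjusted p = 0.512). Its sign turned with scaling to the library total (0.02).

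MBD2 (chromosome 18, 54151601 to 54224788, minus strand), the reader, was at 1105 and 1011 in resistant libraries, against 1668 and 1513 in parental libraries. All resistant values were below all parental ones. MBD2 fell 1.5-fold (log2 fold change -0.59 ± 0.09, SE; 95% interval -0.80 to -0.37; limma adjusted p = 0.00203). DNMT1, UHRF1, TET3 and MBD2 were called lower in each of the 13 alternative settings.

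**Figure D2:**
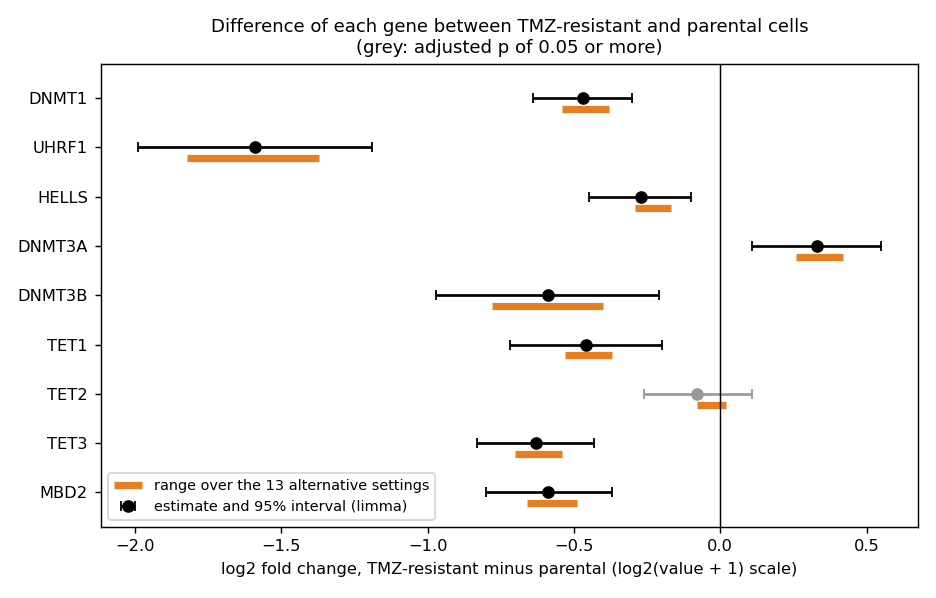
Log2 fold change (TMZ-resistant minus parental, log2(value + 1) scale) of the 9 genes with its 95% interval from limma, and below each point, in orange, the range over 13 alternative settings. UHRF1 stands at -1.59, DNMT3A at 0.33, and TET2, in grey, did not pass the test, its interval running from -0.26 to 0.11.

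Levels were compared between genes per summed exon length, scaled to 1000000 over all genes in a library. In resistant cells DNMT1 was highest (182 ± 5.96, SD, n = 2), followed by UHRF1 (91.6 ± 17.5). In parental cells UHRF1 (257 ± 29.7) and DNMT1 (236 ± 0.561) did not differ beyond their spread per summed exon length. Per longest protein-coding transcript DNMT1 was above UHRF1 in both groups, and HELLS ranked above MBD2 in both. HELLS was at 35.2 ± 0.264 in resistant and 39.7 ± 0.921 in parental cells, and MBD2 at 33.3 ± 3.12 in resistant and 46.9 ± 4.35 in parental cells. Per summed exon length these neighbours did not differ beyond their spread in resistant cells, while MBD2 was the higher in parental cells. TET3 followed with 19.4 ± 0.66 in resistant and 28.1 ± 0.503 in parental cells. DNMT3A, TET2, DNMT3B and TET1 were lowest, between 7.48 and 14.5 in resistant and between 9.69 and 14.2 in parental cells. Within the resistant group DNMT3A (14.5 ± 0.284) and TET2 (14.4 ± 0.549) were level, and within the parental group DNMT3A (10.8 ± 0.487) and DNMT3B (12 ± 1.98) did not differ beyond their spread.

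The make-up of each enzyme family shifted between the groups. DNMT1 held 88.2% and 89.4% of the 3 DNA methyltransferases in resistant libraries, against 91.8% and 90.6% in parental ones. DNMT3A held 7.29% and 6.86% in resistant libraries, against 4.08% and 4.27% in parental ones, and the DNMT3B shares overlapped (4.54% and 3.77% in resistant, 4.14% and 5.15% in parental libraries). Of the TET RNA, TET2 held 35.7% and 34.1% in resistant libraries, against 27.4% and 27.2% in parental ones. TET3 held 45.6% and 48.3% in resistant libraries, against 52.9% and 55.2% in parental ones, and TET1 held 17.6% to 18.7% in resistant and 17.6% to 19.6% in parental ones. These shares depend on the length used. Per longest protein-coding transcript DNMT3A held 5.14% in resistant and 3.01% in parental cells, TET2 held 45.2% in resistant and 36.6% in parental cells, and TET3 held 40.3% in resistant and 48.1% in parental cells (means). The differences of DNMT3A, TET2 and TET3 between groups kept their direction, but TET2 and not TET3 was then the most abundant TET gene in resistant cells.

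**Figure D3:**
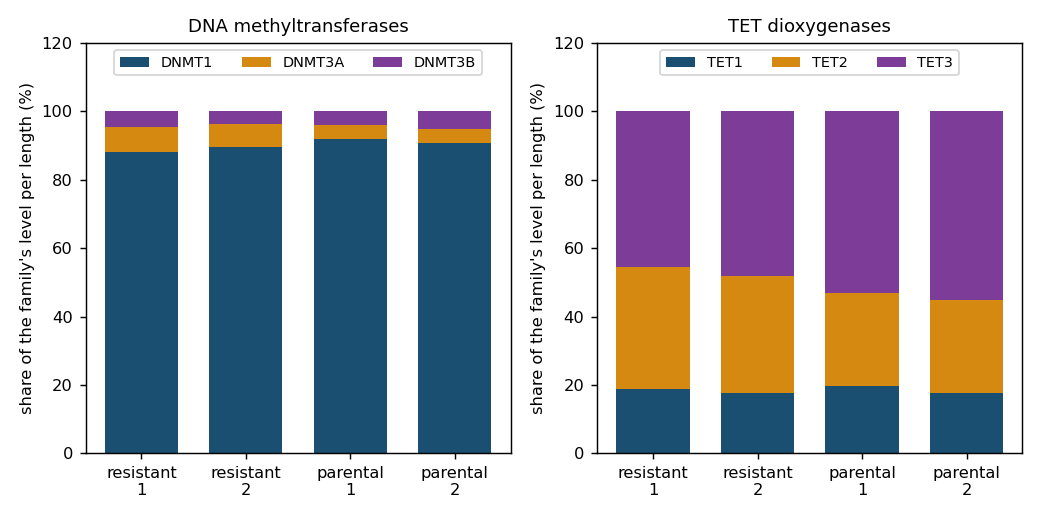
Shares (%) of DNMT1, DNMT3A and DNMT3B (left) and of TET1, TET2 and TET3 (right) in their family's level per summed exon length, 1 bar per library with the resistant libraries on the left. The DNMT3A band is 7.29% and 6.86% in resistant against 4.08% and 4.27% in parental libraries, and the TET2 band 35.7% and 34.1% in resistant against 27.4% and 27.2% in parental libraries.

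Several tested partners of the copying step were lower in resistant cells too. Of 9 listed partners 7 were tested, 5 fell and 0 rose, with a median log2 fold change of -0.37, and with plain empirical Bayes 2 fell. Each count of 0 given here for a list or a neighbourhood was also 0 at an unadjusted limma p under 0.05. PCNA, the sliding clamp that holds DNMT1 at the fork, was at 1926 and 1903 in resistant and 3551 and 3407 in parental libraries (-0.86 ± 0.08, SE; limma adjusted p = 1.63e-04). CDCA7, which recruits HELLS to chromatin, fell 1.45-fold (2694 and 2979 in resistant, 4178 and 4039 in parental libraries), and its relative CDCA7L fell 1.30-fold. USP7, the deubiquitinase that stabilises UHRF1 and DNMT1, fell 1.25-fold. The USP7 call was lost without parental replicate 1 (adjusted p = 0.0746), without resistant replicate 2 (0.0764) and with scaling to the library total (0.0666). UHRF2, the close relative of UHRF1, had a log2 fold change of -0.23 (95% interval -0.43 to -0.03; limma adjusted p = 0.0718). EHMT2 and DPPA3 were listed at 0 in every library, while EHMT1 was at 2470 to 3210. For these and other genes listed at 0, absent RNA and fragments not assigned to the gene were not told apart.

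Replication genes, given because UHRF1, DNMT1 and HELLS are expressed in S phase, were lower too. Of 20 genes 19 fell and 0 rose, with a median of -0.73 and a range of -1.28 to -0.04, and their summed value was 128829 and 131584 in resistant and 183235 and 182783 in parental libraries. The genes with the smallest adjusted p were RRM2, which fell 1.94-fold, GINS2 (2.43-fold), MCM4 (1.94-fold) and GINS3 (2.25-fold). Others moved little: MKI67 and RRM1 fell 1.16-fold and TOP2A 1.2-fold. CDT1 did not pass the test (log2 fold change -0.04, limma adjusted p = 0.853). With scaling to the library total 15 genes of the list fell, and with plain empirical Bayes also 15. UHRF1 lay below the lowest of these 20 genes, while DNMT1 and HELLS lay above their median. The part of a change in cycling cells in the fall of the 3 maintenance genes was not tested.

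Partners of the de novo enzymes went both ways. Of 8 listed genes 6 were tested, 4 fell and 1 rose, with a median of -0.37, and with plain empirical Bayes 2 fell. MPHOSPH8, a subunit of the HUSH silencing complex that binds methylated histone, fell 2.01-fold (725 and 746 in resistant, 1472 and 1487 in parental libraries). QSER1, known from human embryonic stem cells to guard unmethylated regions from DNMT3 enzymes, fell 1.48-fold, and SETD2, which writes the histone mark read by DNMT3 enzymes in gene bodies, fell 1.30-fold. The histone methyltransferase SETDB1 rose 1.36-fold (1438 and 1458 in resistant, 1036 and 1100 in parental libraries). DNMT3L, the inactive cofactor, was listed at 0 in every library, and so was ZFP57.

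Most genes acting with or after TET did not pass the test. Of 13 tested genes 2 rose and 1 fell, with a median of -0.08, and with plain empirical Bayes 1 rose. TDG, the glycosylase that cuts out oxidised methylcytosine, was at 807 and 888 in resistant and 1370 and 1428 in parental libraries, a 1.65-fold fall (-0.72 ± 0.09, SE; limma adjusted p = 7.21e-04). GADD45A, a stress gene linked to active demethylation, rose 1.59-fold. OGT, the sugar transferase that binds TET2 and TET3, rose 1.42-fold (12374 and 11546 in resistant, 7583 and 9298 in parental libraries).

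Among other readers of methylated CpGs no gene passed as lower. Of 8 listed genes 7 were tested, MBD6 rose 1.31-fold and 0 fell, with a median of -0.03. The MBD6 call was lost without resistant replicate 1 (adjusted p = 0.0895) and with plain empirical Bayes (0.0577), and without parental replicate 1 or resistant replicate 2, 1 reader was called lower. Whether MBD2 differed from these genes was not tested. Of the 12 NuRD subunits, the complex that MBD2 recruits, 6 fell and 1 rose, with a median of -0.22. The deacetylase HDAC2 fell 1.47-fold, GATAD2A, which MBD2 contacts, 1.49-fold and MTA2 1.40-fold, while MTA3 rose 1.41-fold. Without resistant replicate 1 or resistant replicate 2 the count of falls was 3, as it was with scaling to the library total and with plain empirical Bayes, and MTA3 did not pass without resistant replicate 2 (adjusted p = 0.0549).

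**Figure D4:**
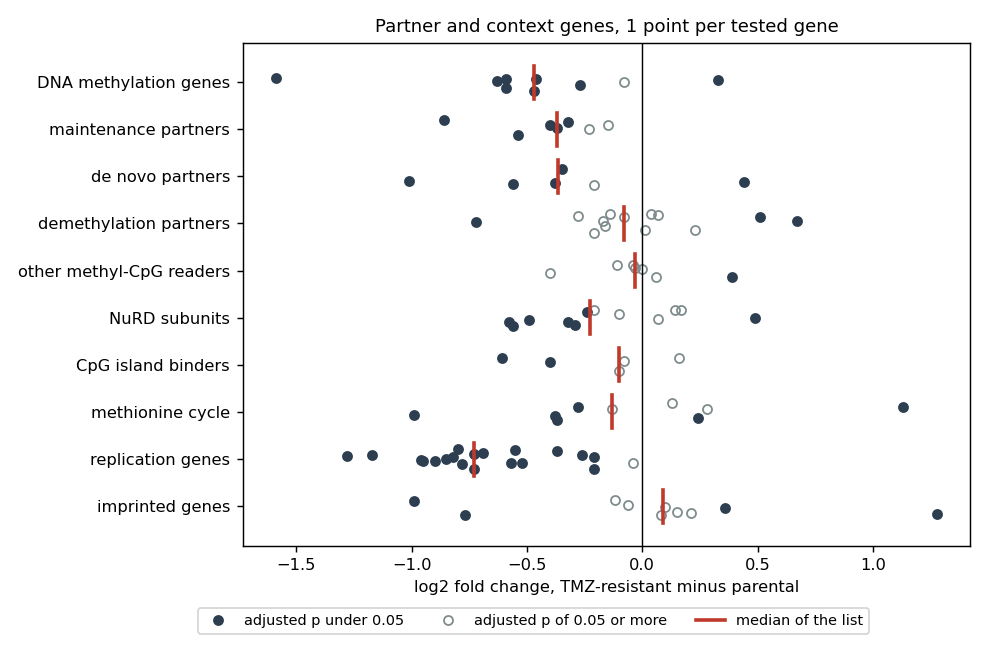
Log2 fold change (TMZ-resistant minus parental) of each tested gene in the 9 DNA methylation genes, the partner lists, the replication genes and the imprinted genes. Filled points passed the test (adjusted p under 0.05), open points did not, and red lines are medians, at -0.73 for replication genes and 0.09 for imprinted genes.

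Binders of unmethylated CpG islands and the supply of the methyl donor were less uniform. Of 5 CXXC domain genes 2 fell and 0 rose, KDM2B, a demethylase that protects islands, 1.53-fold and CXXC1 1.32-fold. The CXXC1 call was lost without resistant replicate 1 (adjusted p = 0.114) and with plain empirical Bayes (0.0635), and with scaling to the library total 1 gene of the list rose. In the methionine cycle, which makes S-adenosylmethionine, 9 of 11 genes were tested, 4 fell and 2 rose. MAT1A and MAT2A, both catalytic subunits of methionine adenosyltransferase, fell 1.99-fold (777 and 858 in resistant, 1628 and 1628 in parental libraries) and 1.29-fold. The methionine synthase MTR fell 1.30-fold. Without resistant replicate 1 the MTR call was lost (adjusted p = 0.0737) and 2 genes of the cycle were called lower. Without any 1 library 1 was called higher. With scaling to the library total 3 genes of the cycle fell and 4 rose, and with plain empirical Bayes 1 fell and 1 rose, so the balance of directions depends on the scaling.

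The chromosomal surroundings of the 9 genes were compared as a description. Of 22 tested coding genes within 2 Mb of HELLS, 11 rose and 0 fell, with a median log2 fold change of 0.31, against -0.04 over all 13313 coding genes tested. HELLS itself was at -0.27, and 1 of the 22 neighbours was lower. TBC1D12, which overlaps HELLS on the same strand outside its exons, was at 597.2 and 630.2 in resistant and 344.1 and 475.2 in parental libraries. TET1 (-0.46), on the same chromosome, lay among genes that tended lower as it did, with 14 of 33 lower, 1 higher and a median of -0.23. UHRF1 lay below all of its 79 neighbours, the lowest of which was at -0.95, and their median was 0. Of all genes tested, 1.07% had a lower log2 fold change than UHRF1, so few genes anywhere lay below it. Around TET3 14 of 42 neighbours fell and 4 rose, and around DNMT1 12 of 86 fell and 22 rose. MBD2 (-0.59) had 4 tested neighbours, with a median of -0.31. Over all genes tested, 20.9% were called lower and 16.2% higher. The part of chromosomal position in these values was not tested.

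**Figure D5:**
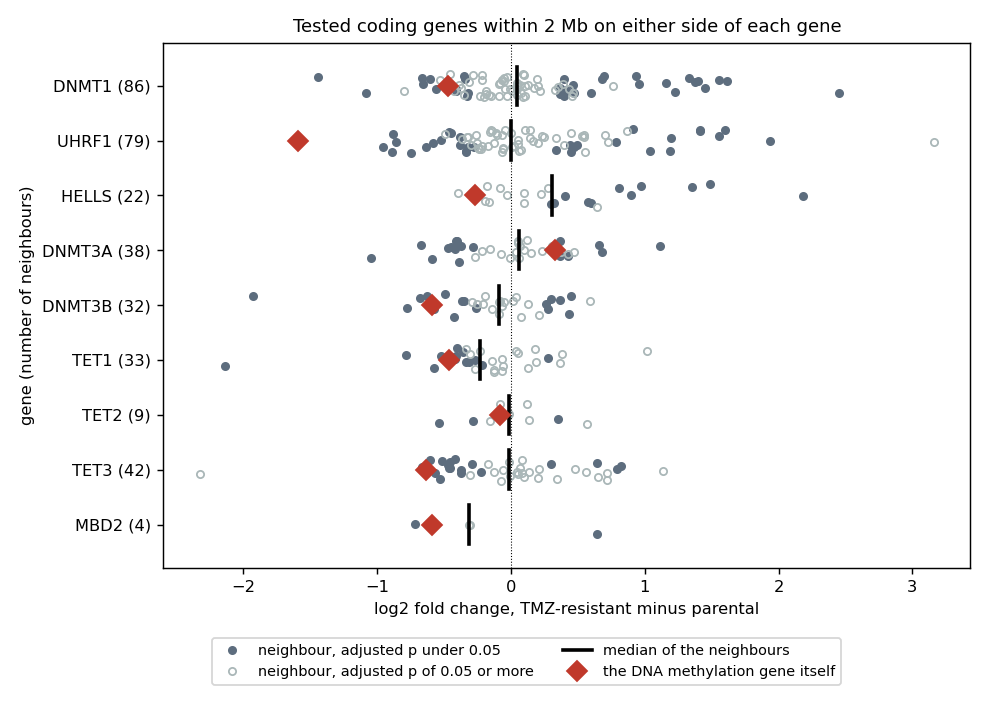
Log2 fold change (TMZ-resistant minus parental) of tested coding genes within 2 Mb on either side of each of the 9 genes, with their number in brackets. Diamonds are the 9 genes and black lines the medians of their neighbours. HELLS, at -0.27, lies below a neighbour median of 0.31, and UHRF1, at -1.59, lies below all 79 of its neighbours. Of all genes tested, 1.07% lay below UHRF1.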

How the data were processed

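The submitters' processing notes name Cufflinks 2.2.1, Cuffdiff, HISAT2 2.1.0, Trimmomatic 0.36, SAMtools 1.2, bcl2fastq and the build GRCh38.p10. Settings, annotation release and strand handling were not given in the sources used here, so fragments of overlapping genes may be divided with error. The authors deposited a signal per gene: fragment numbers multiplied by 1 factor per library, not divided by length. Dividing by each library's step (0.753 to 0.956) gave whole numbers within 0.05 for 93.8% to 94.3% of values above 0. No per-sample column was left unused.

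Samples were grouped by the treatment in the labels. Genes with a value of at least 10 in at least 2 libraries were tested as log2(value + 1), which understates changes of low genes, in limma 3.58.1 (R 4.3.3) with trend and robust moderation, group alone, two-sided, Benjamini-Hochberg over all genes. The procedure was tested on simulated data with independent noise per library and with changes larger than those of most of the 9 genes. That test does not cover changes as small as those of HELLS or DNMT3A. Symbols, coordinates (GRCh38) and lengths come from GENCODE 29, which held 57881 of 58219 IDs. Promoters were matched by symbol for all 9 genes.

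The 9 genes, the lists and the tests were chosen with earlier results of these data known. Besides the 9, each partner list names up to 4 called genes with the smallest adjusted p and the first of opposite direction, and context lists up to 3. UHRF2, MKI67, RRM1, TOP2A, CDT1 and genes listed at 0 were added after their values were seen. Alternatives were 2 pseudocounts, 2 filters, 3 scalings, plain moderation, a replicate block and leaving out each library. Not every gene that the naming rule picks is reported here.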

Additional observations from a re-analysis of the deposited data

How the results depend on the processing

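Under 13 alternatives for each of the 9 genes (117 values), 101 kept direction and side of the threshold, 15 lost the call and 1 changed sign: TET2 was at 0.02 with scaling to the library total. With plain empirical Bayes, 3686 genes were called in all, 5 of the 9 genes were called and 0 were higher. HELLS (-0.27, adjusted p = 0.1), DNMT3A (0.33, adjusted p = 0.09) and DNMT3B (-0.59, adjusted p = 0.0831) then missed the threshold. HELLS was also lost with scaling to the library total (-0.17). Leaving out 1 library gave 3593 to 5476 called genes, 4 to 6 of the 9 called, 4 to 6 lower and 0 to 1 higher. The log2 fold changes then ran from -0.29 to -0.25 for HELLS, from 0.26 to 0.40 for DNMT3A, from -0.78 to -0.40 for DNMT3B and from -0.53 to -0.40 for TET1. A group with 1 library left is assumed to vary like the other. The cause of these changes was not tested. The labels give both groups replicate numbers 1 and 2. Deviations of same-numbered libraries correlated at 0.265 across 16132 genes, but with 2 pairs the numbers are only shared. The replicate block called 8624 genes and changed no call among the 9, while demethylation partners then had 2 falls, other readers 1 fall, CpG island binders 1 rise and markers of other cell types 2 rises and 2 falls. Of 481 values of 37 named partner and context genes, 465 stayed and 16 lost the call, among them CDCA7L, USP7, SETD2, OGT, MBD6, CXXC1, MAT2A, MTR and MT-ND1 with plain empirical Bayes. These 37 genes were picked by their small adjusted p in the main fit, which favours keeping the call, so the tally does not describe the lists. There were 2 libraries per group, and DNMT3B rested on as few as 239 fragments.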

Other observations

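Genes whose expression is known to be tied to DNA methylation were read in the same libraries. Of 15 imprinted genes, whose expression from the copy of 1 parent is tied to DNA methylation, 10 were tested. Of these, 2 rose and 2 fell, with a median log2 fold change of 0.09. GRB10, a growth factor receptor adaptor, was at 316 and 226 in resistant and 118 and 101 in parental libraries, a 2.43-fold rise (1.28 ± 0.20, SE; limma adjusted p = 0.00179). PLAGL1, a zinc finger growth suppressor, was at 829 and 943 in resistant and 1577 and 1963 in parental libraries, a 1.99-fold fall (-0.99 ± 0.12, SE; limma adjusted p = 6.98e-04). PEG10, a retrotransposon-derived gene, fell 1.70-fold (4605 and 4516 in resistant, 7775 and 7737 in parental libraries). Without parental replicate 2, 4 imprinted genes were called higher, and without resistant replicate 1 or resistant replicate 2 the count was 1, as it was with plain empirical Bayes.

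Germline genes, whose promoters are methylated in most somatic cells, were close to silent in both groups. Of 11 such genes TEX14 alone passed the filter, at 48.9 and 37.4 in resistant and 30.9 and 33.5 in parental libraries (log2 fold change 0.40, 95% interval -0.24 to 1.04; limma adjusted p = 0.303). The other genes of the list had at most 3.77 in any library, and ASZ1 and TEX101 were listed at 0 in all of them.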
